A study of Caenorhabditis elegans with 2 samples.

Results

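sprr-1 is a gene of 4503 bp on the X chromosome of Caenorhabditis elegans (WBGene00010986, ce11 15466300 to 15470802, plus strand), annotated by RefSeq as a protein with the domain of G-protein coupled receptors. It was chosen by its ChIP-seq signal for the transcription factor ELT-1, which is among the highest in the genome, so its signal and rank are given as a description with no test. The members were all peaks with a summit from 10 kb upstream to 10 kb downstream of the gene. They numbered 2 of the 1400 peaks that passed the submitters' irreproducible discovery rate (IDR) step, 3 of 30000 in the relaxed list of the pooled replicates, 5 of 30000 in the relaxed list of replicate 1 and 1 of 26001 in that of replicate 2.

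All data came from 1 group with 2 biological replicates, and there was no second condition to compare. Both came from mixed-stage embryos of hermaphrodite strain OP354, with the unc-119(tm4063) allele on chromosome III and the transgene wgIs354, from which ELT-1 is made with GFP and FLAG at its C-terminus. Per the descriptions GFP was the target of the antibody, whereas the antibody entry reads elt-1. The promoter and copy number of the transgene are not given in the sources used here. Whole embryos were used, so more bound cells and more binding per cell cannot be told apart. Read depth was unknown, and signal, the authors' own value for each peak, was compared only within a list.

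ELT-1 belongs to the GATA family of zinc finger factors, which bind the sequence WGATAR, where W stands for A or T and R for G or A, and it specifies the epidermis of the worm embryo. The symbol sprr-1 stands for sex peptide receptor related, after the receptor of that name in Drosophila. Such receptors sit in the cell membrane and respond to neuropeptides, and in Drosophila the family is known for its part in mating behaviour. A bound intron is one of the places where a factor can act on a gene, but a peak alone does not name the gene that it acts on.

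The strong peak (ce11 chromosome X, 15469937 to 15470448, 512 bp) lay over intron 9, the last intron of sprr-1. Of its length, 423 bp were the whole of that intron and 89 bp were in the exons to either side. The label of an intronic peak therefore held for the summit, at 15470174, and for most of the interval. The intron carried an array of GATA sites from 15470062 to 15470347, which is printed here from the RefSeq sequence of WBcel235, plus strand, because it holds every WGATAR match of the peak. Capitals mark the matches, which all read WGATAR on the minus strand and therefore appear as their reverse complement.

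sprr-1 array: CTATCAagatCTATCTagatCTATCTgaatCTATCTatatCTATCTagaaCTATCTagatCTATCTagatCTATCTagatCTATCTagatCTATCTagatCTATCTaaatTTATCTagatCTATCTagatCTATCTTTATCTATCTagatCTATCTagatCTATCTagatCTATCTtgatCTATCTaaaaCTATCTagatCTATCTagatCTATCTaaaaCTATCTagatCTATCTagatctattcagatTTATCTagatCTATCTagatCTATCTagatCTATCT

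The array was a tandem repeat with a unit of 10 bases. On the minus strand the commonest copy of the unit was as follows, with the GATA site in capitals.

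sprr-1 repeat unit: atctAGATAG

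Of the 29 WGATAR matches in the interval, 29 were on the minus strand and 0 on the plus strand. Of the 28 gaps between the starts of successive sites, 25 were exactly 10 bp, and the others were 4, 6 and 20 bp. A site off the 10 bp spacing, between neighbours, gave the gaps of 4 and 6 bp, and a unit with no match gave the gap of 20 bp. Of the 29 sites, 17 were part of an exact copy of the unit, and the longest unbroken run of exact copies was 5 units. In all, the 10-base copies came in 11 different versions. AGATAG made up 25 of the 29 sites (86.2%), AGATAA 3 and TGATAG 1. Among the 1554 WGATAR sites within 100 bp of the other nuclear IDR summits the order was different, with AGATAA at 46.3%, TGATAA at 26.6%, AGATAG at 18.1% and TGATAG at 8.94%. The array thus consisted mainly of the third commonest form at ELT-1 peaks.

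**Figure D1:**
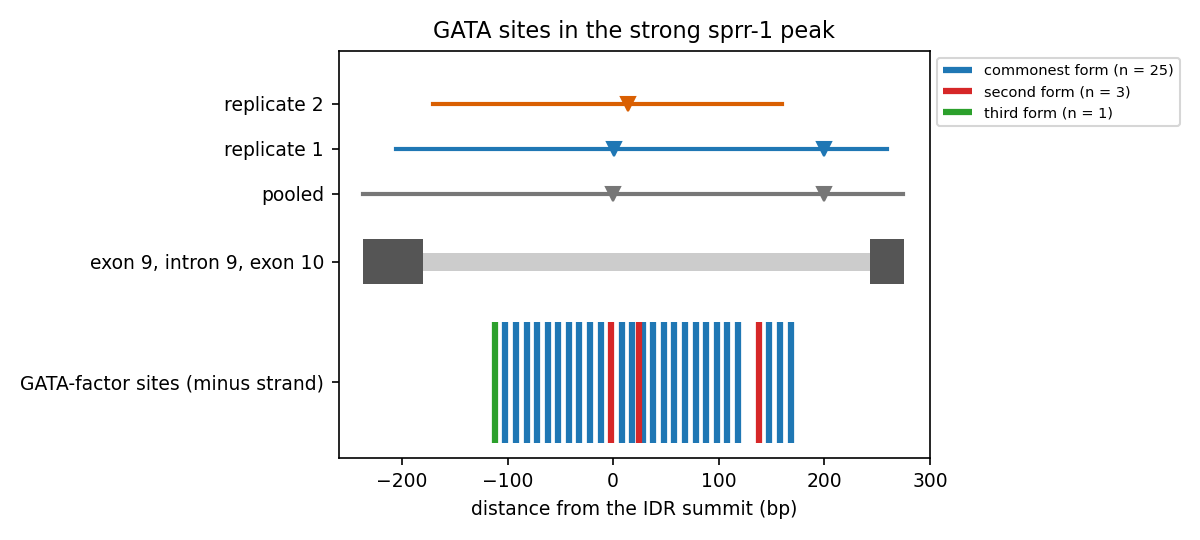
GATA-factor sites in the strong sprr-1 peak by distance from the IDR summit (bp). Vertical bars are the 29 WGATAR matches on the minus strand, coloured by form (AGATAG 25, AGATAA 3, TGATAG 1). Above them stand exon 9, intron 9 and exon 10 within the interval, and the intervals (lines) and summits (triangles) of the pooled, replicate 1 and replicate 2 relaxed lists. The sites are evenly spaced and lie inside the intron, and the first summit of each list lies among them.

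The array filled 286 bp, or 67.6% of the intron, with 68 bp of other sequence before it and 69 bp after it. Sites stood at 101 per kb in the array, against 2.11 per kb in the rest of the window around sprr-1 and 2.38 per kb in the nuclear genome. The other 8 introns held 2 sites in all, both in intron 8 (548 bp), and the exons held 6. The 1000 bp upstream of sprr-1 held 4 sites, and no list had a summit there. Outside the array, a window of 100 bp to each side held at most 3 sites. The array was poor in G and C, at 27.6% against 35.2% for the X chromosome.

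Repeats were also measured without reference to the motif, as the share of bases in stretches of 10 that matched the sequence 1 period further on at 9 or more positions, both copies counted, for the best of the periods from 2 to 60 bp. The best period was 10 bp, and 57.2% of the interval and 99.3% of the array lay in such stretches. The median over the other 1375 nuclear IDR peaks was 6.29%, and 4 of them were at or above the share of the sprr-1 interval, up to 83.4%. RefSeq soft-masking, which marks repeats in lower case, covered 0% of the array. It covered 8.98% of the interval and a median of 15.7% of nuclear IDR intervals.

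A repeat can make reads hard to place, so each stretch of 36 and of 50 bases was looked up in the whole genome on both strands. At 36 bases, 441 of 477 stretches of the interval (92.5%) and 222 of 251 within the array (88.4%) occurred once. The others occurred at most 4 times, and 0 of them had a copy outside the interval. At 50 bases, 463 of 463 were unique. Only identical stretches counted as copies, so stretches of the array that differ at a few bases were taken as unique. At 36 bases, 45 of the 1375 other nuclear IDR peaks (3.27%) had a lower share of unique sequence. The part of read length and of reads with several matches in the signal was not tested, since neither is given in the sources used here.

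The signal of the peak in the IDR list was 468, in a list that ran from 27.8 with a median of 39.4. It ranked 3 of 1400, and 2 among nuclear peaks. In replicate 1 its signal was 314, which ranked 3 of 30000. In replicate 2 it was 155, which ranked 2 of 26001. The peak was the strongest of the 333 on the X chromosome in the IDR list and also the strongest on X in both replicates. Above it in the IDR list stood a peak inside elt-1, the tagged gene itself, at 823, and a mitochondrial peak at 488. Below it came a mitochondrial peak at 395, a peak 766 bp from the start of elt-1 at 281 and another mitochondrial peak at 279. The transgene may add copies of elt-1 sequence to the genome, and the part of such copies in the elt-1 signals was not tested. The submitters' q-value did not separate the sprr-1 peak from the rest, since all 1400 IDR peaks shared the value of 3.53 (−log10).

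**Figure D2:**
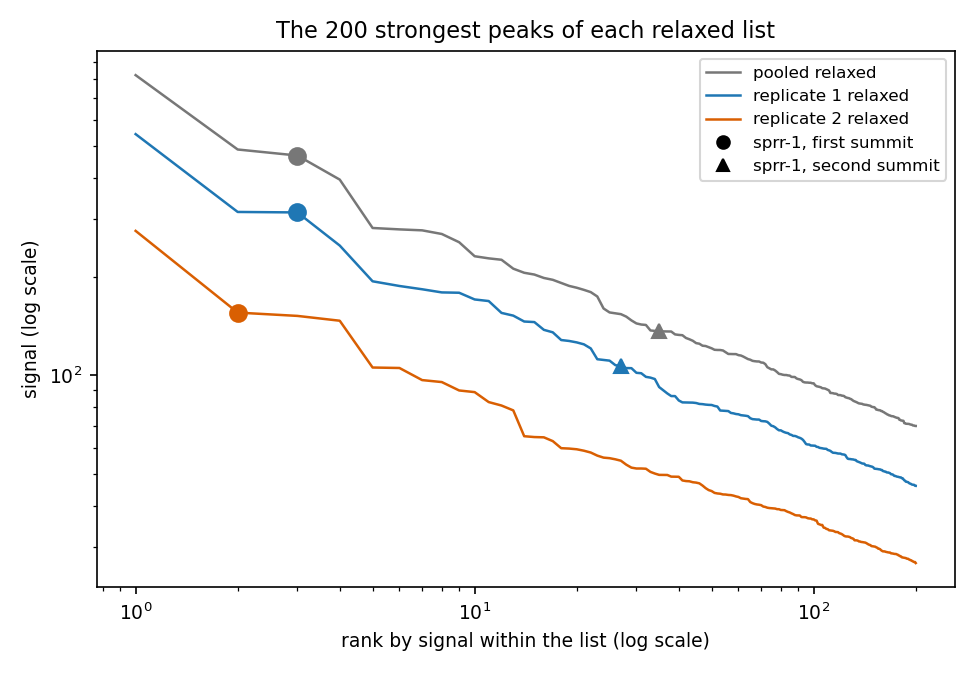
Signal (log scale) against rank (log scale) for the 200 strongest peaks of the pooled, replicate 1 and replicate 2 relaxed lists. Circles mark the first and triangles the second summit of the strong sprr-1 peak. The first summit ranks 3, 3 and 2 in these lists, and the second, listed in the pool and in replicate 1, ranks 35 and 27.

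The replicates gave the peak nearly the same place relative to other peaks. Its signal was 56.9% of the strongest elt-1 peak in the pool, 57.7% in replicate 1 and 56.3% in replicate 2. It was 2.53 times the next strongest separate peak of the X chromosome in the pool, 2.49 times in replicate 1 and 2.38 times in replicate 2, although that next peak was a different one in each list. The summits of the replicates, 15470175 and 15470188, were 13 bp apart, and the median distance was 36 bp over the 1375 IDR peaks that overlapped relaxed peaks of each replicate. In 303 of these 1375 (22.0%) the summits were as close or closer. The 3 highest ranks went to the same 3 regions in both replicates, mitochondrial peaks included.

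The same interval was listed again with a second summit at 15470374, which lay 200 bp from the first. Its signal was 136, or 29.1% of the first, and it ranked 35 in the IDR list. It stood 27 bp past the last site of the array and 42 bp before the end of the intron, with 6 WGATAR matches within 100 bp. Replicate 1 had a second summit at the same base, with a signal of 107 (rank 27), or 34.0% of its first. Replicate 2 had none, and its interval ended 40 bp short of that position. Of the 1396 distinct IDR intervals, 4 were listed with more than 1 summit.

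Apart from this peak the window held only weak summits. The number of summits in other windows of this size was not measured, so their count is a description. Of the 3 pooled relaxed summits in the window, the 2 in intron 9 were IDR peaks, and over the genome 5.44% of pooled relaxed peaks overlapped one. The same 2, which share 1 interval, overlapped a relaxed peak in both replicates, as did 30.5% of all pooled relaxed peaks. With summits required within 100 bp, only 1 of them matched both replicates. The third pooled summit lay upstream of the gene, at -8525 bp from its annotated start, with a signal of 5.60 and a rank of 25429 in a list whose lowest signal was 4.89. Replicate 1 had 3 further weak summits, at -6168 and -4172 bp from the annotated start and in intron 6, with signals of 4.46, 5.45 and 3.56. Replicate 2 had no other summit in the window. None of the weak summits was found in more than 1 list.

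**Figure D3:**
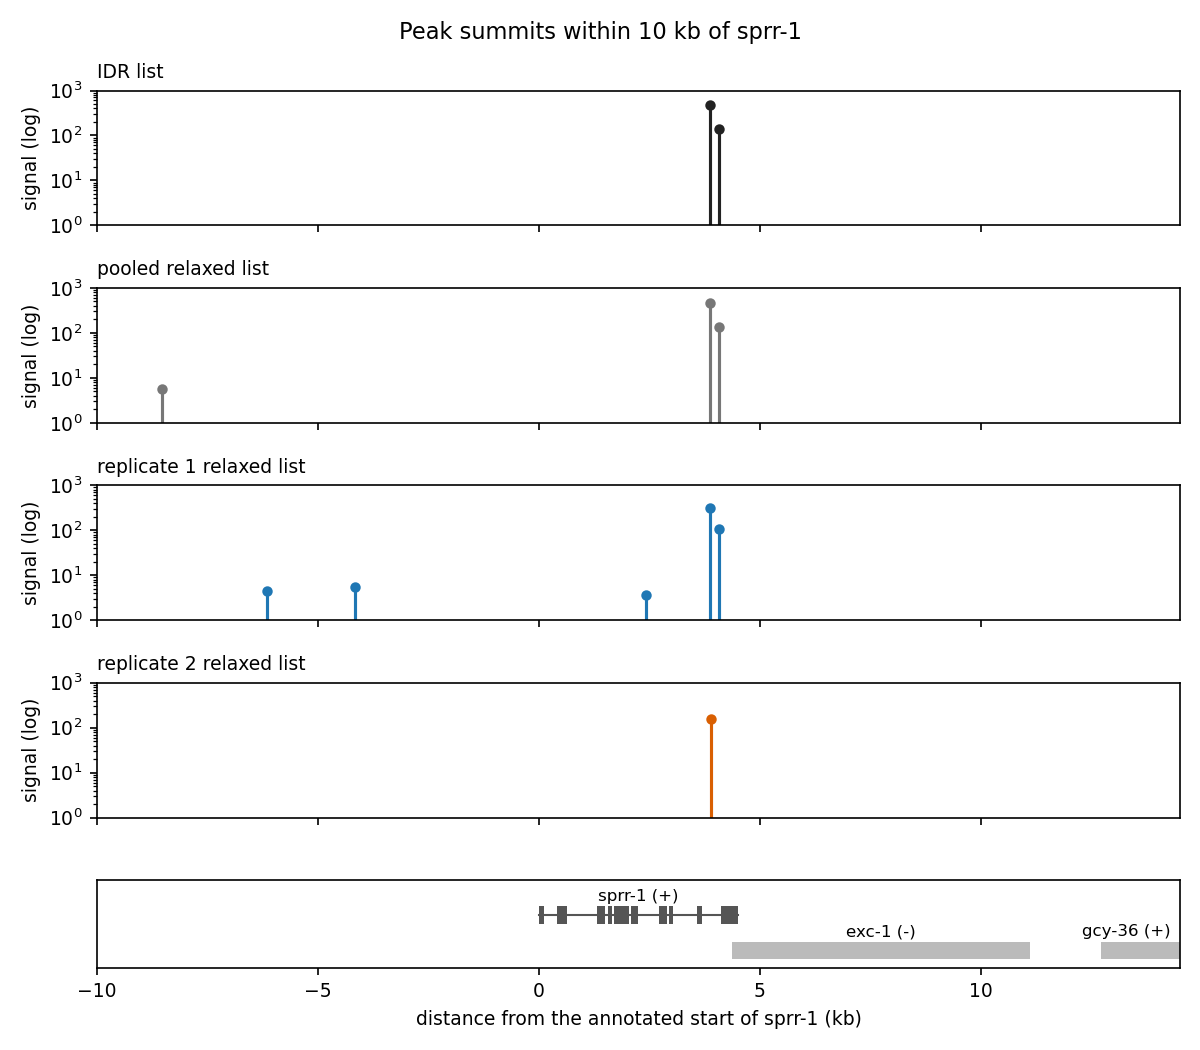
Peak summits from 10 kb upstream to 10 kb downstream of sprr-1 by distance from its annotated start (kb), with signal on a log scale, in the IDR, pooled relaxed, replicate 1 and replicate 2 relaxed lists. The lowest panel shows protein-coding genes, with strand in brackets, and the exons of sprr-1 as boxes. In the last intron the first summit stands at 155 to 468 and the second, absent from replicate 2, at 107 to 136, and the other summits in the window at 3.56 to 5.60.

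The first summit lay 3874 bp downstream of the annotated start of sprr-1. exc-1, which is needed for the shape of the excretory canals, runs in the opposite direction and overlaps the end of sprr-1. The summit was 489 bp from the 3′ end of exc-1 and 7235 bp from its annotated start. gcy-36, which encodes a soluble guanylate cyclase of oxygen-sensing neurons, starts 8843 bp away, and the piRNA gene 21ur-13292 starts 4471 bp away on the side of the sprr-1 promoter. No summit in any list lay between the strong peak and the downstream edge of the window, a stretch that holds the annotated starts of exc-1 and gcy-36. Just outside the window, the nearest IDR peak downstream was in gcy-36, 4703 bp beyond the edge, with a signal of 35.3. The nearest upstream was 10051 bp beyond the edge, with a signal of 33.4. Among relaxed peaks, the nearest upstream lay 2150 bp beyond the edge in replicate 1, with a signal of 6.66, and 772 bp beyond it in replicate 2, with a signal of 3.55.

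The count of sites at the summit was then set against all IDR peaks. Within 100 bp of the first sprr-1 summit there were 20 WGATAR matches, all on the minus strand, and within 100 bp of the summits of replicate 1 and replicate 2 there were 20 and 21. The median over the 1377 nuclear IDR peaks was 1, the highest count outside the sprr-1 interval was 8, and the highest in 2633 windows 1000 bp to either side of IDR summits was 4. Among the 164 nuclear IDR peaks with at least 3 matches, 66 (40.2%) had all of them on 1 strand. By number of sites, sprr-1 was followed by a peak in dmd-7, of the DM-domain family (8 sites, signal 65.3, rank 229), and an intergenic X-linked peak whose nearest start is C25A11.2 (8 sites, signal 42.7, rank 593). Peaks nearest to nhr-48, a nuclear hormone receptor gene, and C52E2.3, and 1 inside R04B5.6, had 6 sites each and signals of 51.5, 45.6 and 34.0.

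More sites did not always go with more signal. The median signal was 36.4 for the 479 nuclear IDR peaks with 0 WGATAR matches within 100 bp, 38.9 for 464 with 1, 43.0 for 270 with 2, 51.2 for 119 with 3, 47.0 for 31 with 4 and 45.6 for 14 with 5 or more. Without the peaks in sprr-1 and elt-1, 11 peaks with 5 or more sites had signals from 29.5 to 187, with a median of 42.7, near the 39.3 of all nuclear IDR peaks. Spearman's rho between the count and signal was 0.233 over the 1377 nuclear IDR peaks and 0.229 without the sprr-1 interval, a description only, since all values come from the same libraries. The strongest peak, in elt-1, had 5 sites to the 20 of sprr-1. Whether copies of elt-1 sequence in the transgene bear on the elt-1 signal was not tested.

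**Figure D4:**
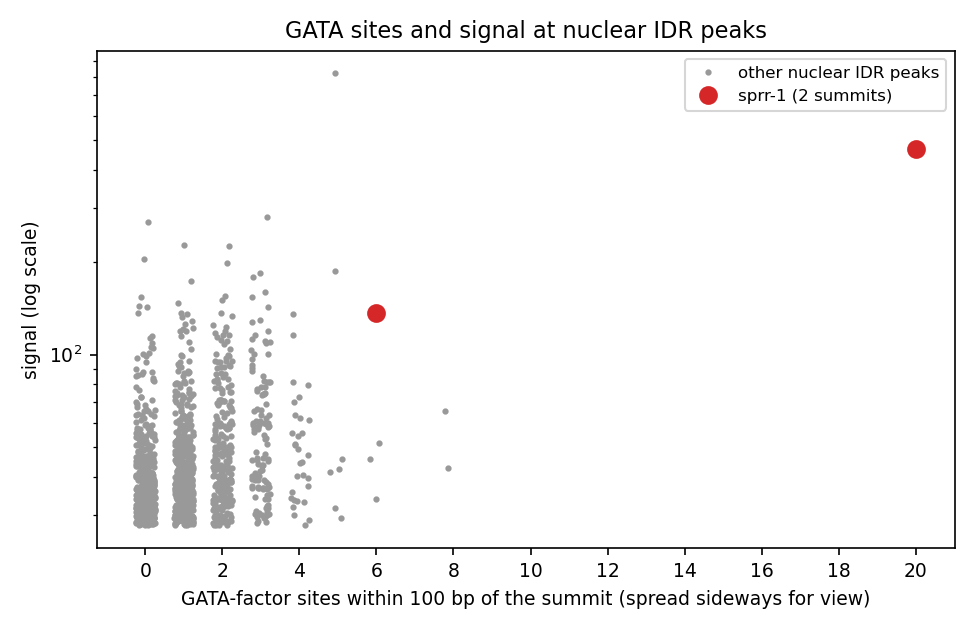
Signal (log scale) against the number of WGATAR matches within 100 bp of the summit for the 1377 nuclear IDR peaks, spread sideways for view. The 2 sprr-1 summits, at 20 and 6 sites, are in red. The first stands apart in the number of sites, while the elt-1 peak at 5 sites has the highest signal. The copy number of the elt-1 transgene is not known.

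The search was then turned around, from peaks to sequence. In the nuclear genome 18 regions held at least 8 WGATAR matches in a window of 100 bp to each side, a threshold set after the data were seen. The sprr-1 array was the densest, with 21, and the next held 10. Of the other 17 regions, 2 overlapped an IDR peak, dmd-7 and the region near C25A11.2. Of tiled windows of the same size over the nuclear genome, 0.714% overlapped an IDR peak. A further 3 regions had only relaxed peaks, with pooled signals of 10.7, 8.74 and 11.9, and 12 had no peak in any list.

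Among those 12, 6 lay in coding exons, 5 of them in dig-1, which encodes a giant extracellular matrix protein, and 1 in ttn-1, a titin gene. In these 6, 0% of the stretches of 36 bases were unique in the genome. In the other 6 regions between 91.0% and 100% were unique, above the 88.4% of the sprr-1 array. Of the regions with an IDR peak, dmd-7 had 100% and the region near C25A11.2 had 84.5%, below the sprr-1 array.

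Printed here for comparison are the second densest region of the genome, on chromosome V (1721986 to 1722158, its middle 194 bp from the nearest annotated start, that of srw-101), which had no peak in any list, and the repeat near C25A11.2 (X, 9119004 to 9119135), which had an IDR peak. Both are on the plus strand with WGATAR matches in capitals, and in both all matches are on the minus strand, as in sprr-1.

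region near srw-101: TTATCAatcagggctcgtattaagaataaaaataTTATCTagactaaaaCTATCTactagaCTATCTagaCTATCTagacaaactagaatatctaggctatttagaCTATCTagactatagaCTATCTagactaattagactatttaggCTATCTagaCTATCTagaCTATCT

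region near C25A11.2: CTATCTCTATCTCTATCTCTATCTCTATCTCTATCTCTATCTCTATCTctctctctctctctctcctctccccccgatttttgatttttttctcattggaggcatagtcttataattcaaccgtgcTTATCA

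The region near srw-101 held 10 sites, 8 of them AGATAG, at uneven gaps, of which 3 were 9 bp, and it was 100% unique at 36 bases. The region near C25A11.2 held 9 sites, 8 of them AGATAG, and it was 84.5% unique at 36 bases. Its sites were packed at 6 bp, with 7 such gaps, where those of sprr-1 stood at 10 bp. Its signal was 42.7 in the pool, 22.0 in replicate 1 and 17.8 in replicate 2. An intronic region of dsl-3, a gene of the Delta and Serrate ligand family, held 8 sites, all AGATAG, and had no peak. Dense AGATAG sites on a single strand were thus found with a strong peak, with a weaker IDR peak and with none, and the cause of the difference was not tested. The exact 10-base unit occurred 111 times in the nuclear genome, 17 of them in the sprr-1 peak, and 1 other place had it in tandem, with 2 units.

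**Figure D5:**
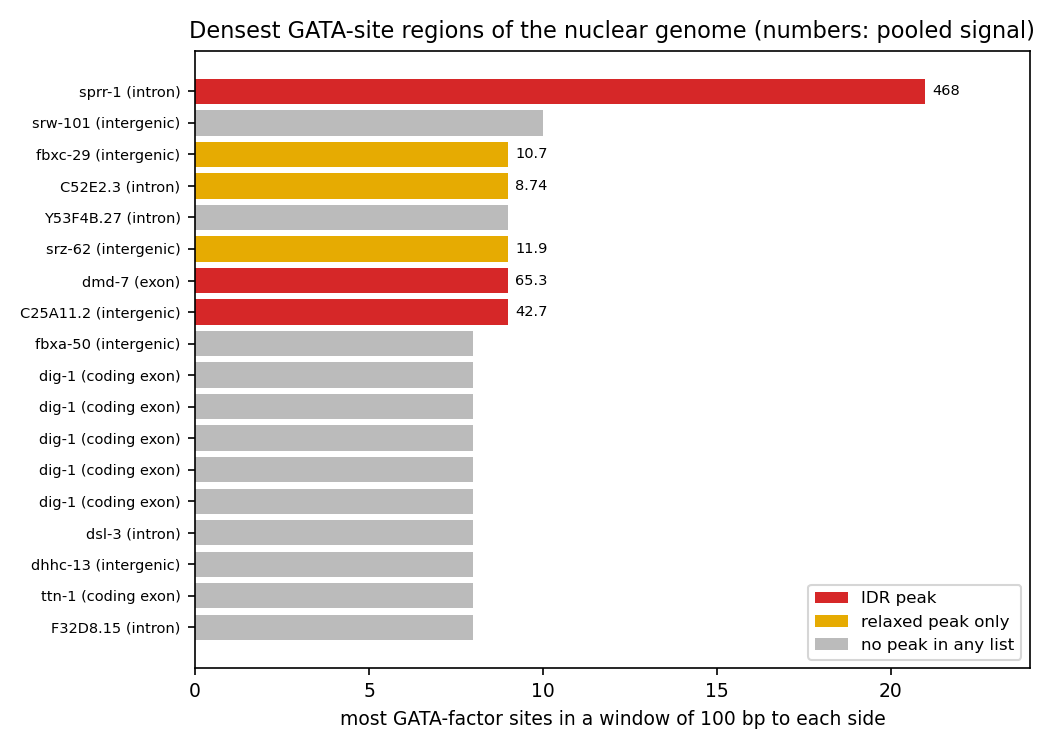
The 18 regions of the nuclear genome with at least 8 WGATAR matches in a window of 100 bp to each side, named by the gene they lie in or the nearest start, with the most matches per window as bars. Red bars overlap an IDR peak, yellow bars a relaxed peak only and grey bars no peak, and the numbers are pooled signals. The sprr-1 array holds 21 matches against 10 or fewer in the others.

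Other receptor genes were looked at to see whether ELT-1 peaks were a feature of the family. Of 99 neuropeptide receptor genes, named by their symbols (sprr, dmsr, frpr, npr, ckr, tkr, nmur, ntr and gnrr), 0 had an IDR summit from 1000 bp upstream to 200 bp downstream of a transcript start. Over all 19985 protein-coding genes the share was 3.61%. A count of 0 of 99 allows a share of up to 3.03% when the limit is set at 3 counts. By the 95% Wilson interval it allows up to 3.74%. The 3.61% of all genes lay above the first limit and below the second. Both limits are for counting error only, and they differ on this point, so no difference from all genes is read from the count. sprr-1 itself was among the 99 and did not count, since its peak is in its last intron. When the whole gene and 1000 bp upstream were taken, 1 of the 99 had an IDR summit, against 5.03% of all protein-coding genes, and that gene was sprr-1, chosen for its peak.

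Of its relatives, sprr-2 on the X chromosome had 1 IDR peak within 10 kb, 3075 bp upstream of its annotated start and nearest to the start of tatn-1, a tyrosine aminotransferase gene. That peak had a signal of 93.2 and 1 WGATAR match. It ranked 357 in replicate 1, with a signal of 35.7, and 14 in replicate 2, with a signal of 65.2, against ranks of 3 and 2 for the sprr-1 peak. Inside sprr-2 the pooled relaxed list had 3 summits, with a highest signal of 24.4. The highest signal inside the gene was 16.6 in replicate 1 and 3.19 in replicate 2. sprr-3 on chromosome IV had no IDR peak within 10 kb, and its highest pooled relaxed signal was 9.17, in the gene.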

How the data were processed

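ELT-1 ChIP-seq was measured in 2 biological replicates of 1 group, numbered per the labels. The peak caller, the aligner and the IDR threshold are not given in the sources used here. Read depth is unknown, so no precision was derived from it. Peak lists in narrowPeak format were used as deposited. Per the file lists deposited with the samples, the authors made relaxed lists for each replicate and for the pool, and the IDR list from them. The deposited signal (column 7) has no stated scale, and the deposited −log10 q-value was constant in the IDR list. Intervals, summits and lists are on ce11, and coordinates are 1-based. The lists on ce10 served as an alternative, with nothing converted between builds.

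Genes came from Ensembl release 115 and sequence from RefSeq, both of WBcel235. WGATAR was searched on both strands with overlapping matches counted. Flanking windows lay 1000 bp to each side of a summit and met no IDR peak. Dense regions were merged from windows of 100 bp to each side. The sequence measures were tested on simulated sequence. No statistical test was run, since the gene was chosen for its signal and there is 1 group.

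The gene, its lists and the measures were chosen with earlier results of these data known. Genes named were sprr-1, genes within 10 kb, occupied receptor genes, the IDR peaks next to sprr-1 in rank and those with the most sites. Genes of dense regions, sprr-2 and sprr-3 were named after their values were seen. Alternatives covered lists, replicates, builds, windows, motifs, overlap and thresholds. Analyses used Python 3.11.15 with numpy 2.4.6, pandas 2.3.3 and matplotlib 3.10.9.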

Additional observations from a re-analysis of the deposited data

How the results depend on the processing

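Of 32 alternatives over 8 results, 22 left the value within 1.5 times the reported one, or for a share within its 95% Wilson interval. For the repeat share that interval took bases as trials. Neighbouring bases of a repeat are not independent, so there it served as a yardstick and measured no spread. The rank of the peak was 3 or 2 in every list tried, at 3 for the strongest X peak of ce10, where its signal was 467. To leave out a replicate, the relaxed list of the other was used, for summits and receptor genes only its 1400 peaks of highest signal. This gave a rank of 2 to 3, 1 to 2 summits in the window, 20 to 21 WGATAR matches and 0 occupied receptor genes. A flank of 20 kb raised the IDR summits from 2 to 4. With 50 bp to each side of the summit the matches were 10, and as AGATAA alone they were 2. The repeat share was 47.3% with exact repeats only, for which the best period was 50 bp and not 10 bp. It was 100% in the window around the summit. With summits required within 100 bp, 1 pooled peak matched both replicates, and with the whole gene and 1000 bp upstream 1 receptor gene was occupied, sprr-1 itself, against 5.03% of all protein-coding genes. For at least 10 sites the share of other dense regions with an IDR peak was 0%, from 1 region. For HGATAR (H, A, C or T) the densest region elsewhere held 18 matches, against 21 for sprr-1, so sprr-1 kept the highest count by a smaller margin. That region, inside Y65B4A.2, had 6 WGATAR matches, no IDR or pooled relaxed peak, and a signal of 2.54 in replicate 2. The alternatives for dense regions were chosen after seeing the data. Ranking by the p-value column was not possible, since it is constant. No paired analysis was possible because the series has 1 group. Depth is unknown, and 2 replicates do not give a spread for a single peak.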
